A study of Mus musculus with 12 samples.

Results

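The 43 genes described here encode proteins of DNA replication and of mitosis, 15 of them acting in S phase and 28 in G2 and mitosis (G2/M). They were picked by their gene symbols, and each gene was read from its brightest probe set, the one with the highest mean log2 intensity over 12 arrays. A probe set of their own existed for 36 of the 43 (13 S phase and 23 G2/M genes), among 18820 genes so represented on the array. All 36 passed the filter on dim genes, which left 12345 genes for testing, and the dimmest of them, Cdc25c, lay at the 74.6th percentile of all probe sets. The other 7 could not be read: Gins2, Ccne2, Kif20a, Nusap1, Ube2c and Foxm1 appear only on probe sets shared with other genes, and Ccnb1 was not listed in the annotation used.

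The arrays profiled EML1, a mouse blood progenitor line that was started from male BDF1 bone marrow by infection with the retroviral vector LRARalpha403SN, which all groups therefore share. The cells carried TEL-AML1 in the lentiviral vector pWPI or the empty pWPI vector, and each was profiled untreated and after 5 and 7 days of IL7 and FLT3L, with 2 arrays in each of the 6 groups. TEL-AML1 joins the transcription factors ETV6 and RUNX1 and is the commonest gene fusion of B-cell precursor leukaemia in childhood, and the series asks which genes it regulates in these cells. The culture protocol describes differentiation as growth of 50000 plated cells over OP9 stroma in a medium and serum of their own, with 10 ng/ml IL7 and 80 ng/ml FLT3L, while the sample titles name only the cytokines. If that protocol was followed, day 5 and day 7 differ from untreated cells in cytokines, stroma, medium and serum at once. Whether the cells of each vector were a pool or 1 clone, and whether the replicates came from separate cultures, the sources used here do not give, so each p-value refers to the spread between arrays and that spread may be technical.

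Values are intensities as deposited, and differences are log2 fold changes of intensity + 16 with the standard error after ±. A gene is called where limma's adjusted p is under 0.05 after Benjamini-Hochberg adjustment over all 12345 genes. Array medians ran from 68.1 to 72.9. Summed intensities of 10 blood progenitor markers lay between 10817 and 12280 on every array. Stroma markers varied far more. Of 37, 35 were named and 29 passed the filter, and an array gives none of them a true 0. Their summed intensity was 5162 and 4958 in untreated TEL-AML1 cells, 13364 and 7344 at day 5 and 5799 and 8434 at day 7, against 4818 and 4536, 15558 and 12447, and 5870 and 10267 with the empty vector. Igfbp4 and Pdgfrb were bright in untreated cells already, at 1741 and 917 on empty vector replicate 1. At day 5 over untreated, 25 of the 29 tested markers were called higher with the empty vector (86.2%), against 8.40% of all tested genes. With TEL-AML1 0 were called, though all 29 were above 0. Whether this RNA came from stroma cells was not tested. In these bulk samples, fewer cycling cells and less RNA of these genes in each cell cannot be told apart.

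A cell commits to division in G1, when E2F transcription factors switch on the genes that license and fire replication origins. The MCM helicase is loaded on DNA by CDC6 and CDT1, and PCNA, the sliding clamp, then holds the polymerases on the strand. Genes of G2 and mitosis are switched on later by the MuvB complex with B-MYB (Mybl2) and FOXM1, largely through a promoter element named CHR and nearby CCAAT boxes, and are kept silent in resting cells by the same complex with RB family proteins. Pro-B and pre-B cells alternate between bursts of division driven by IL7 and pauses in which antibody genes are rearranged.

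The promoters of the 2 sets differed in the letters they hold. RefSeq promoters (build GRCm38.p6, 250 bases before to 50 after each start) were listed for 12 S phase and 22 G2/M genes of the 43. CHR was searched as TTTGAA or TTCGAA, the CCAAT box as CCAAT and the E2F element as TTTGGCGC, TTTCCCGC, TTTGCCGC or TTTCGCGC, on both strands. TTCGAA reads the same on both strands, and words that overlap were each counted. CHR letters were found for 16 G2/M genes (72.7%) and for 2 S phase genes (16.7%), against 16.1% of the 9879 tested genes with a listed promoter. E2F letters were found for 1 G2/M gene (Cdk1, 4.55%) and for 5 S phase genes (Mcm3, Mcm5, Mcm6, Cdc6 and Cdt1, 41.7%), against 4.51% of those tested genes. CCAAT was common in both sets, at 81.8% of G2/M and 75% of S phase genes, against 42.1%. CHR and CCAAT stood together in 68.2% of G2/M and 16.7% of S phase genes, against 6.58%. A match is a run of letters and not a measured binding site.

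**Figure D1:**
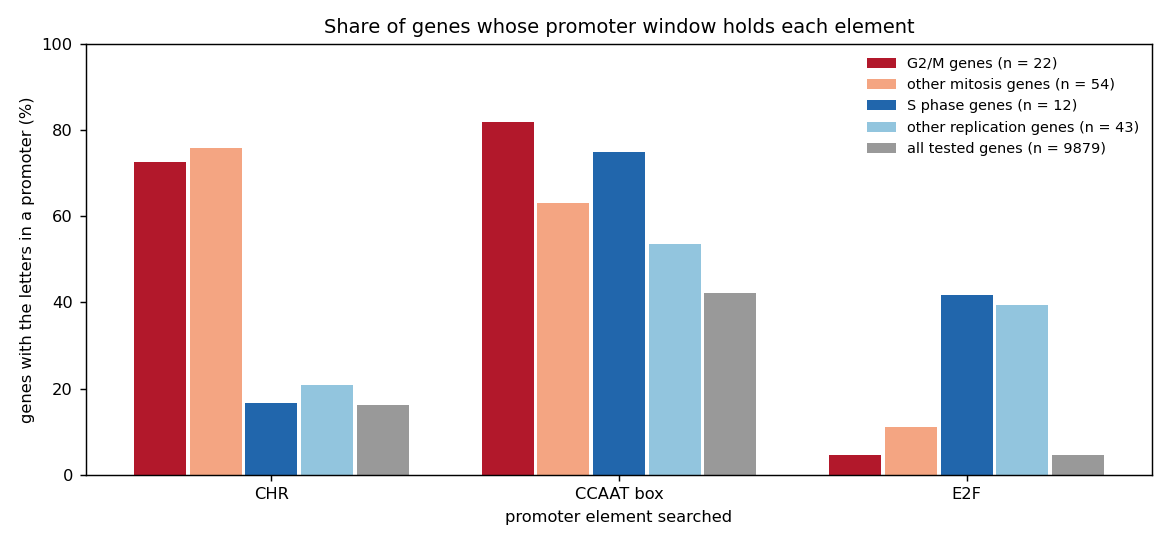
Share of genes, in percent, whose promoter window (250 bases before to 50 after a start) holds CHR, CCAAT or E2F letters, as bars for 22 G2/M genes, 54 other mitosis genes, 12 S phase genes, 43 other replication genes and 9879 tested genes. CHR bars are tall for the mitosis sets (72.7% and 75.9%) and E2F bars for the replication sets (41.7% and 39.5%).

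The 6 promoters printed here show these letters, each as the 170 bases that end at the base before the start. Cdc20, Prc1 and Kif11 carry CHR and CCAAT and show the common G2/M layout, Cdk1 carries E2F letters as well, and Mcm6 and Mcm5 carry E2F letters with CCAAT and no CHR. They were chosen because the letters lie before the start site, and Prc1 has 2 listed starts, of which the later is shown. The positions are chr4:118437344-118437513 on the minus strand for Cdc20, chr7:80294306-80294475 on the plus strand for Prc1, chr19:37376212-37376381 on the plus strand for Kif11, chr10:69352913-69353082 on the minus strand for Cdk1, chr1:128359706-128359875 on the minus strand for Mcm6 and chr8:75109339-75109508 on the plus strand for Mcm5. Capitals mark CHR, CCAAT and E2F letters on either strand, so that ATTGG is CCAAT and TTCAAA is TTTGAA read from the other strand.
Cdc20: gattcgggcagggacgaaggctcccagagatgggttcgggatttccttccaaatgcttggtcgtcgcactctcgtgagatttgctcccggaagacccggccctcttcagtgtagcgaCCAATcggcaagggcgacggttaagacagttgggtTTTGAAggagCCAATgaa
Prc1: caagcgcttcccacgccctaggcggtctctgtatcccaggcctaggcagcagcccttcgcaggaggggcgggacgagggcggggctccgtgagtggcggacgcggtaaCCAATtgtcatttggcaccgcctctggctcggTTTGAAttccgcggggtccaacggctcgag
Kif11: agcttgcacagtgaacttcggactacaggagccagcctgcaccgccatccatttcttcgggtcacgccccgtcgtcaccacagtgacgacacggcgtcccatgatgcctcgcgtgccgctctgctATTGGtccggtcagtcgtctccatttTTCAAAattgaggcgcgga
Cdk1: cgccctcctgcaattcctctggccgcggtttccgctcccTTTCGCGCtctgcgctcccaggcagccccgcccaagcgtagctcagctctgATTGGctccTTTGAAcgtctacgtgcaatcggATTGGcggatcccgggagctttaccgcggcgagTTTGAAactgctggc
Mcm6: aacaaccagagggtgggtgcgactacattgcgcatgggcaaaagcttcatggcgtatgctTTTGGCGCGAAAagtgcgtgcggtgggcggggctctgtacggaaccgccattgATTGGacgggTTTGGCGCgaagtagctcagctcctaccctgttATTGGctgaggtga
Mcm5: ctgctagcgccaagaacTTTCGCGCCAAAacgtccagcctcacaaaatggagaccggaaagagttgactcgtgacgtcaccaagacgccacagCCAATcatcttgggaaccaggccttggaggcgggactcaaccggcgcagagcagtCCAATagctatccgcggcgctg

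In untreated cells the 2 vectors had like S phase and G2/M levels, and the G2/M level lay further below the S phase level on the treated TEL-AML1 arrays than on any other. The level of a set is the mean log2(intensity + 16) of its genes on an array. G2/M levels were 9.457 and 9.443 in untreated TEL-AML1 cells, 9.203 and 9.192 at day 5 and 8.789 and 8.952 at day 7, against 9.466 and 9.495, 9.330 and 9.108, and 9.093 and 9.265 with the empty vector. S phase levels were 9.821 and 9.790, 9.746 and 9.816, and 9.661 and 9.615 with TEL-AML1, where the empty vector arrays spanned 9.561 to 9.859. Both TEL-AML1 arrays of day 7 had lower G2/M levels than any of the other 10 arrays, while their S phase levels lay inside the range of the treated empty vector arrays.

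The G2/M level minus the S phase level took the sets' shared shift out. It was -0.36 and -0.35 in untreated TEL-AML1 cells, -0.54 and -0.62 at day 5 and -0.87 and -0.66 at day 7. With the empty vector it was -0.39 and -0.35, -0.39 and -0.45, and -0.47 and -0.51, so that its untreated and day 5 arrays overlapped. TEL-AML1 minus empty vector came to 0.02 untreated, -0.16 at day 5 and -0.28 at day 7, where arrays of a group had a pooled SD of 0.0695. The 2 vectors overlapped in untreated cells and did not at day 5 or day 7. The day 7 difference between vectors was -0.17 without TEL-AML1 replicate 1 and -0.38 without replicate 2. These levels are a description and carry no test, because the genes were chosen with results in view.

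**Figure D2:**
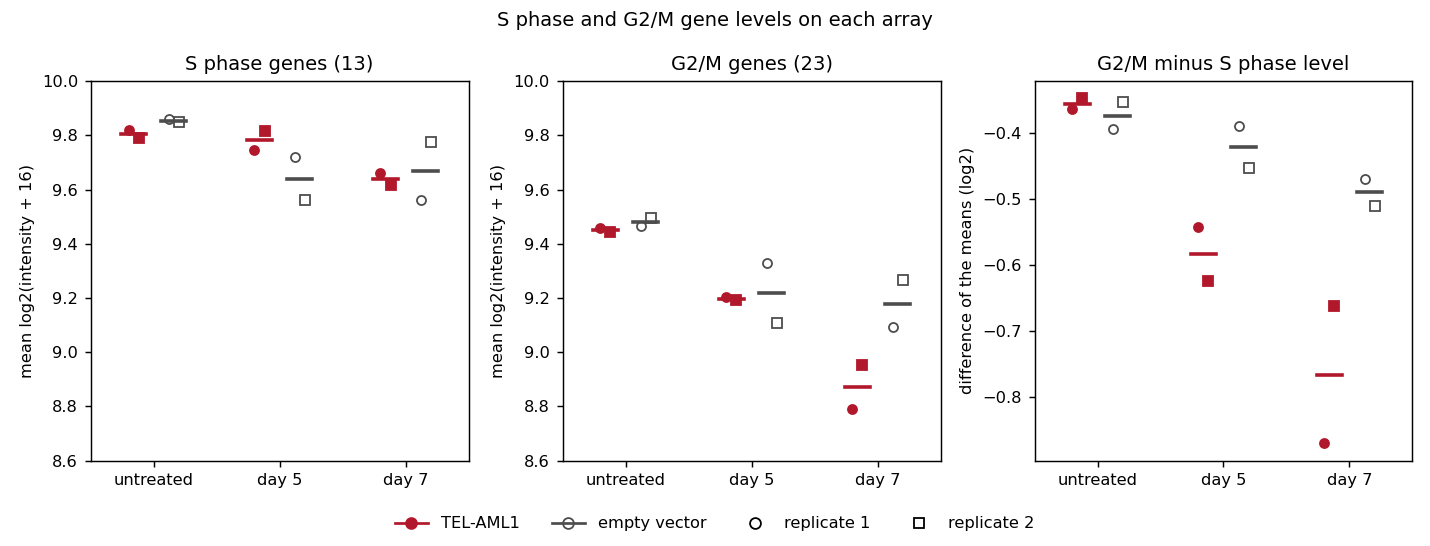
Mean log2(intensity + 16) of 13 S phase genes (left) and 23 G2/M genes (middle) and their difference (right) on each of 12 arrays, by treatment, with TEL-AML1 filled and left of the empty vector, replicates 1 and 2 as circles and squares, and bars at the mean of 2 arrays. The vertical axes do not start at 0, and the TEL-AML1 arrays of day 7 have the lowest G2/M levels, 8.789 and 8.952.

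In untreated cells TEL-AML1 had no called effect on any of the 36 genes. Over all tested genes, 2.73% were called higher and 6.15% lower in that comparison. None of the 36 had an unadjusted limma p under 0.05 either, and the median difference was -0.03 for S phase and -0.03 for G2/M genes. The largest difference among S phase genes was Rrm2, a subunit of the enzyme that makes deoxynucleotides, at -0.25 ± 0.171, adjusted p = 0.538.

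At day 5 none of the 36 genes was called between the vectors. All 8 origin licensing and helicase genes were above 0 with a median of 0.23, and over all genes 3.02% were called higher and 4.27% lower. Empty vector day 5 replicate 1 was below replicate 2 in only 3 of the 36 genes (median gap 0.166), so the lower replicate 2 enters these differences. The S phase median was 0.187 without replicate 1 and 0.087 without replicate 2, against 0.089. Cdc45 overlapped, at 428 and 484 with TEL-AML1 against 481 and 393 with the empty vector. Mcm3, a subunit of the MCM helicase, had intensities of 990.1 and 998 untreated, 925 and 986 at day 5 and 900 and 849 at day 7 with TEL-AML1, against 881 and 853, 747 and 732, and 680.3 and 871 with the empty vector. Both TEL-AML1 arrays lay above both empty vector arrays untreated and at day 5, and 1 empty vector array of day 7 reached into the TEL-AML1 range. The day 5 difference of Mcm3 was 0.36 ± 0.104, adjusted p = 0.0659. Mcm6, another subunit, read 1241 and 1323 untreated, 1327 and 1379 at day 5 and 1304 and 1350 at day 7 with TEL-AML1, against 1161 and 1205, 1185 and 1038, and 1166 and 1205 with the empty vector. Its TEL-AML1 arrays were the higher ones in each of the 3 conditions, with a day 5 difference of 0.28 ± 0.0809, adjusted p = 0.066. The loading factors Cdt1 and Cdc6 differed by 0.34 ± 0.121 and 0.37 ± 0.163 at day 5 (adjusted p = 0.137 and 0.232). Mcm2, also of the helicase, read 1343 and 1256 untreated, 1337 and 1343 at day 5 and 1277 and 1208 at day 7 with TEL-AML1, against 1433 and 1305, 1260 and 1175, and 1102 and 1283 with the empty vector, and separated the vectors at day 5 alone. An unadjusted limma p under 0.05 was reached at day 5 by 4 S phase genes and no G2/M gene. With a block for the replicate number inside each condition, 1 S phase gene was called, as were 2 without empty vector day 5 replicate 1 and 1 without either empty vector array of day 7.

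At day 7 the called genes were mitotic genes. Of the 23 G2/M genes, 8 were lower with TEL-AML1 (34.8%) and none was higher, where 6.00% of all tested genes were called lower and 5.25% higher. Their median difference was -0.35, and 22 of 23 were below 0, the exception being Mybl2. None of the 13 S phase genes was called, 1 had an unadjusted p under 0.05, and their median was -0.03 beside -0.03 for all tested genes. That S phase median averages 2 unlike empty vector arrays, at -0.068 without empty vector day 7 replicate 1 and 0.104 without replicate 2. It was -0.06 and 0.031 without TEL-AML1 day 7 replicates 1 and 2. Without empty vector day 7 replicate 1, 2 S phase genes were called, and 1 without replicate 2. With the replicate block within each condition, 14 G2/M genes were called, among 9.41% of all genes called lower.

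Among the cyclins, Ccna2, the cyclin A that drives S phase and entry into mitosis, had intensities of 1555 and 1559 untreated, 1355 and 1410 at day 5 and 1173 and 1139 at day 7 with TEL-AML1, against 1531 and 1562, 1482 and 1535, and 1565 and 1598 with the empty vector. The empty vector arrays stayed within 1482 to 1598 throughout, and both day 7 TEL-AML1 arrays lay below all of them. The difference at day 7 was -0.45 ± 0.066, adjusted p = 0.00185. Ccnb2, a B-type cyclin and partner of CDK1, read 2290 and 2214 untreated, 2019 and 2127 at day 5 and 1604 and 1859 at day 7 with TEL-AML1, against 2147 and 2282, 2321 and 2318, and 2167 and 2161 with the empty vector. Its 2 vectors overlapped untreated and separated at day 5 and day 7, with -0.32 ± 0.0827, adjusted p = 0.0313 at day 7. Cdk1, the kinase itself, was lower on both TEL-AML1 arrays of day 7 but missed the threshold (-0.20 ± 0.106, adjusted p = 0.277), as did Cdc25c, the phosphatase that activates it (-0.37 ± 0.124, adjusted p = 0.089).

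Of the 7 mitotic kinases, Bub1 and Plk1 were called. Bub1, a kinase of the spindle checkpoint, read 683 and 669.6 untreated, 514 and 567 at day 5 and 382 and 453 at day 7 with TEL-AML1, against 758 and 787, 615 and 525, and 563 and 549 with the empty vector. Every TEL-AML1 array of a condition lay below its empty vector counterparts untreated and at day 7, and the groups overlapped at day 5. The day 7 difference was -0.40 ± 0.101, adjusted p = 0.028. Plk1, the polo-like kinase of spindle assembly and mitotic exit, read 1249 and 1248 untreated, 1055 and 1030 at day 5 and 738 and 811 at day 7 with TEL-AML1, against 1209 and 1275, 1135 and 1024, and 917 and 1215 with the empty vector, with both day 7 TEL-AML1 arrays the lowest of the 12 and a difference of -0.44 ± 0.118, adjusted p = 0.0385. Aurkb, the Aurora kinase of the chromosome passenger complex, was not called and read 1316 and 1294 untreated, 1083 and 1100 at day 5 and 783 and 968 at day 7 with TEL-AML1, against 1336 and 1330, 1148 and 1030, and 969.7 and 1224 with the empty vector. Its day 7 difference was -0.32 ± 0.122, adjusted p = 0.135. The checkpoint kinase Bub1b differed least among the kinases, at -0.05 ± 0.133.

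Among 8 tested genes of the spindle, kinetochore and midzone, 4 were called. Tpx2, which nucleates spindle microtubules and activates Aurora A, read 779 and 773 untreated, 648 and 619 at day 5 and 480 and 534 at day 7 with TEL-AML1, against 772 and 769, 695 and 637, and 656 and 662 with the empty vector. The vectors were level untreated, overlapped at day 5 and were apart at day 7 (-0.37 ± 0.0772, adjusted p = 0.0122). Kif23, the midzone kinesin needed for cytokinesis, read 809 and 733 untreated, 619.5 and 661 at day 5 and 545 and 499 at day 7 with TEL-AML1, against 796 and 782, 696 and 599.6, and 720.5 and 671 with the empty vector. Both day 7 TEL-AML1 arrays were the lowest of all 12, and the difference was -0.40 ± 0.0931, adjusted p = 0.0196. Cenpe, a kinesin that carries chromosomes to the spindle equator, read 409 and 386 untreated, 327 and 344 at day 5 and 252 and 293 at day 7 with TEL-AML1, against 456 and 457, 378 and 309, and 366 and 360.1 with the empty vector. It was below the empty vector untreated and at day 7 and overlapped at day 5, with -0.40 ± 0.101, adjusted p = 0.03 at day 7. Prc1, which bundles midzone microtubules and whose promoter is printed above, differed by -0.47 ± 0.131, adjusted p = 0.0449. A dimmer Prc1 probe set, at the 27.6th percentile and so below the filter, differed by -0.04 at day 7. A dimmer probe set of Kif11, at the 60th percentile, differed by 0.06. Kif11, the kinesin that pushes spindle poles apart, read 1122 and 1031 untreated, 844 and 901 at day 5 and 759 and 802 at day 7 with TEL-AML1, against 1132 and 1113, 1050 and 952, and 1076 and 903 with the empty vector, and its day 7 difference of -0.33 ± 0.0966 stayed just above the threshold (adjusted p = 0.054).

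No gene of the other classes was called at day 7. Top2a, the topoisomerase that disentangles chromosomes, read 1419 and 1462 untreated, 1320 and 1259 at day 5 and 1079 and 1160 at day 7 with TEL-AML1, against 1463 and 1555, 1322 and 1210, and 1221 and 1307 with the empty vector. Mki67, the proliferation antigen Ki-67, read 1661 and 1664 untreated, 1457 and 1342 at day 5 and 1270 and 1292 at day 7 with TEL-AML1, against 1600 and 1793, 1511 and 1368, and 1468 and 1516 with the empty vector. In both, the day 7 TEL-AML1 arrays were the lowest, with differences of -0.17 ± 0.0796 and -0.22 ± 0.0835 that were not called. Dimmer Top2a probe sets, at the 88.3rd and 33.5th percentiles, differed by -0.09 and 0.02. Cdc20, the activator of the anaphase-promoting complex, read 601 and 535 untreated, 521 and 521 at day 5 and 341 and 401 at day 7 with TEL-AML1, against 672 and 580, 592 and 527, and 444 and 609 with the empty vector. Its difference was -0.47 ± 0.144, adjusted p = 0.0622. Mybl2, the B-MYB activator of mitotic genes, read 494 and 452 untreated, 426 and 477 at day 5 and 331 and 395 at day 7 with TEL-AML1, against 488 and 484, 432 and 389.8, and 277 and 412 with the empty vector, and its groups overlapped in every condition.

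The S phase genes of day 7 overlapped between vectors in all but 3 cases. Mcm6 and Cdt1 lay on the higher side with TEL-AML1 and E2f1 on the lower. None of the 3 was called, where 5.25% and 6.00% of all genes were called higher and lower. How many of all genes had arrays that did not overlap was not counted. With 2 arrays a group such separation is common, so the 3 cases are a description only. E2f1, the transcription factor of the G1/S step, read 560.2 and 514 untreated, 516 and 609 at day 5 and 541 and 542 at day 7 with TEL-AML1, against 595 and 602, 602 and 614, and 599.8 and 751 with the empty vector. Pcna read 2235 and 2237 untreated, 2297 and 2234 at day 5 and 2578 and 2038 at day 7 with TEL-AML1, against 2234 and 2280, 2496 and 2283, and 2965 and 2279 with the empty vector, with wide replicate gaps at day 7 in both vectors. A further Pcna probe set gave a day 7 difference of -0.21, beside -0.18 ± 0.132 for the brighter, and neither separated the vectors.

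The count of 8 mitotic genes rests on few arrays. It was 3 with arrays centred on their medians, 2 with array weights and 0 in a fit of the 4 day 7 arrays alone. Over all tested genes, 5.08%, 4% and 1.43% were called lower in those fits, against 6.00% in the main one. The G2/M median was -0.28 and -0.43 without TEL-AML1 day 7 replicates 1 and 2. It was -0.39 and -0.255 without empty vector day 7 replicates 1 and 2. Without either TEL-AML1 day 7 array or any untreated array, fewer genes were called, in the G2/M set and over all genes. Stroma markers summed to 5799 and 8434 in TEL-AML1 and 5870 and 10267 in empty vector cells of day 7. These sums include Igfbp4 (2260 and 2331 against 2014 and 1725) and Pdgfrb (1066 and 1323 against 777 and 859). Of the 29 tested markers, 27 were below 0 between vectors at day 7 and 2 above, with a median of -0.22. Of them, 1 was called higher and 0 lower. Fn1 read 131 and 755 with TEL-AML1 against 276 and 1313, so the like sums of replicate 1 do not show like stroma levels. With each array's stroma level as a covariate 8 G2/M genes were again called, where 7.13% of all genes were called lower. Prc1 was not among the 8 (limma adjusted p = 0.0574).

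**Figure D3:**
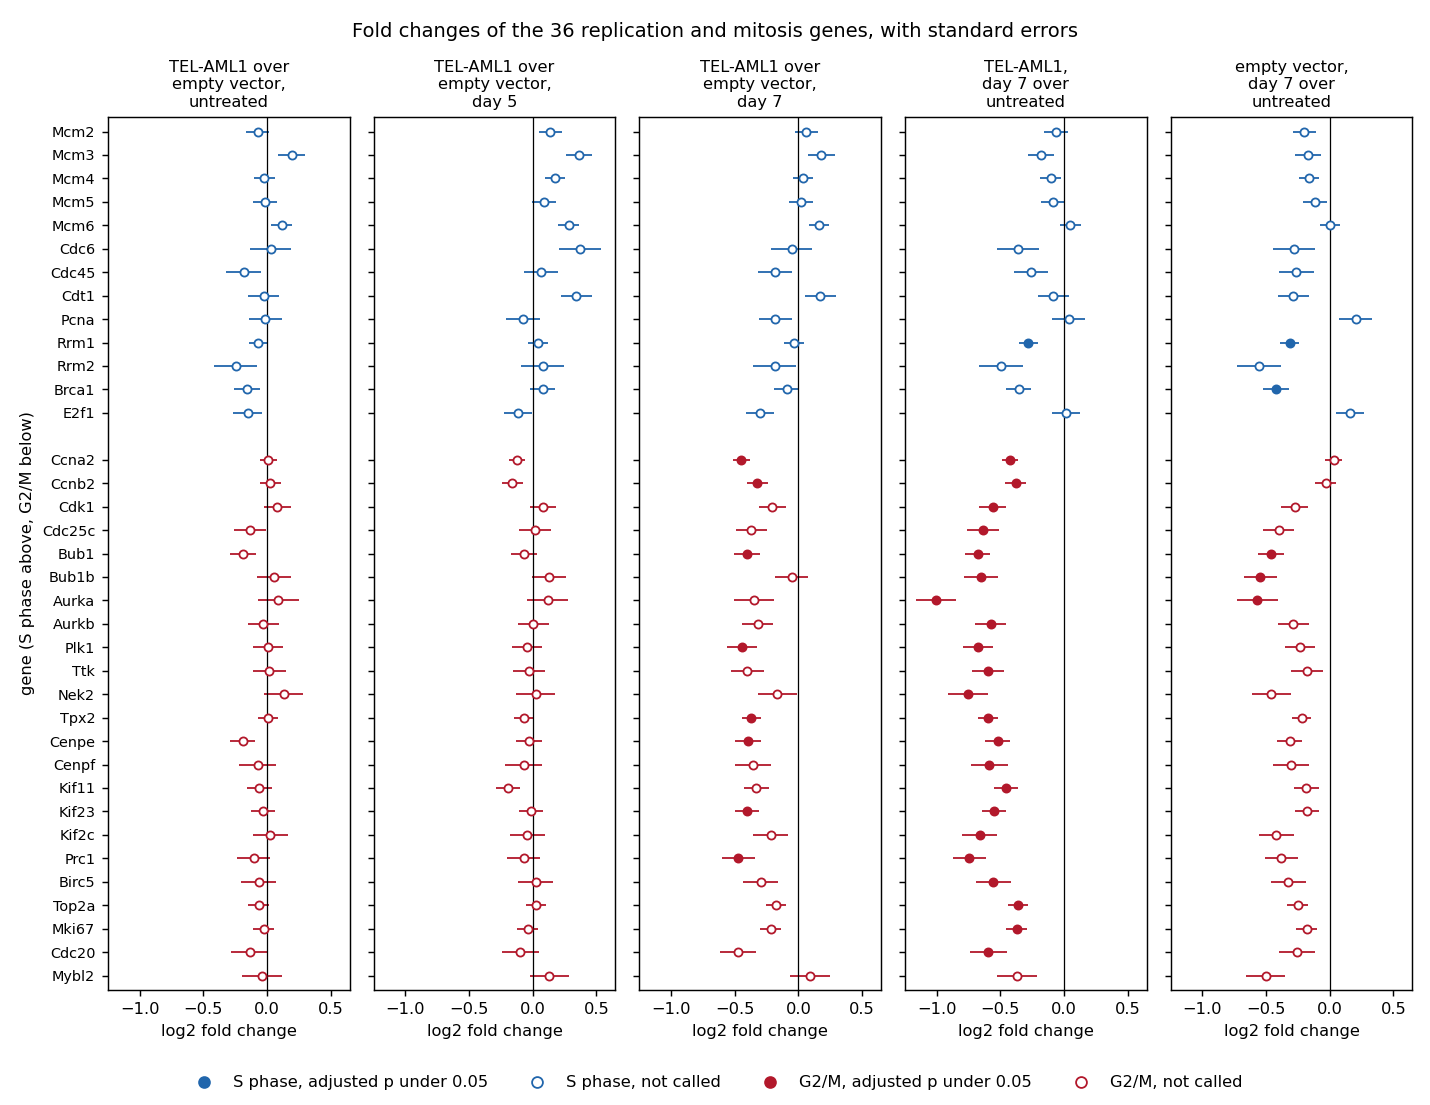
Log2 fold change of intensity + 16 with its standard error for 13 S phase genes (above, blue) and 23 G2/M genes (below, red) in 5 comparisons, filled where the limma adjusted p is under 0.05. The 8 filled G2/M genes of the day 7 vector comparison and the 22 of TEL-AML1 day 7 over untreated lie below 0, and no S phase gene is filled in the 3 vector comparisons.

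Averaged over the 3 conditions, 2 S phase genes were higher (15.4% of 13) and 6 G2/M genes lower (26.1% of 23) with TEL-AML1. Over all genes 9.83% were called higher and 12.7% lower. This mean takes in day 7, where the G2/M median was -0.35, beside -0.03 untreated and -0.03 at day 5. The day 5 median changed sign with 1 array, at 0.111 without empty vector day 5 replicate 1 and -0.121 without replicate 2. The higher pair was Mcm3 (0.24 ± 0.0599, adjusted p = 0.0141) and Mcm6 (0.19 ± 0.0467, adjusted p = 0.0163). The lower ones were Ccna2 (-0.19 ± 0.0381), Bub1 (-0.22 ± 0.0583), Cenpe (-0.21 ± 0.0584) and Kif11 (-0.20 ± 0.0558). Ccnb2 (-0.15 ± 0.0477, adjusted p = 0.0429) and Tpx2 (-0.14 ± 0.0446, adjusted p = 0.043) were called too, near the threshold. With the stroma covariate Ccnb2, Tpx2 and Cenpe were not called (limma adjusted p = 0.0796, 0.103 and 0.0601), while Ccna2, Bub1 and Kif11 were. With the replicate block within each condition 12 G2/M genes were called, among 17.9% of all genes called lower, and with the stroma covariate 3, among 13.1%. Both counts moved when single arrays were left out. The G2/M median then ranged from -0.168 without TEL-AML1 day 7 replicate 2 to -0.089 without empty vector day 5 replicate 1, against -0.143. The S phase median ranged from 0.001 without empty vector day 7 replicate 1 to 0.055 without TEL-AML1 day 7 replicate 2, against 0.03.

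**Figure D4:**
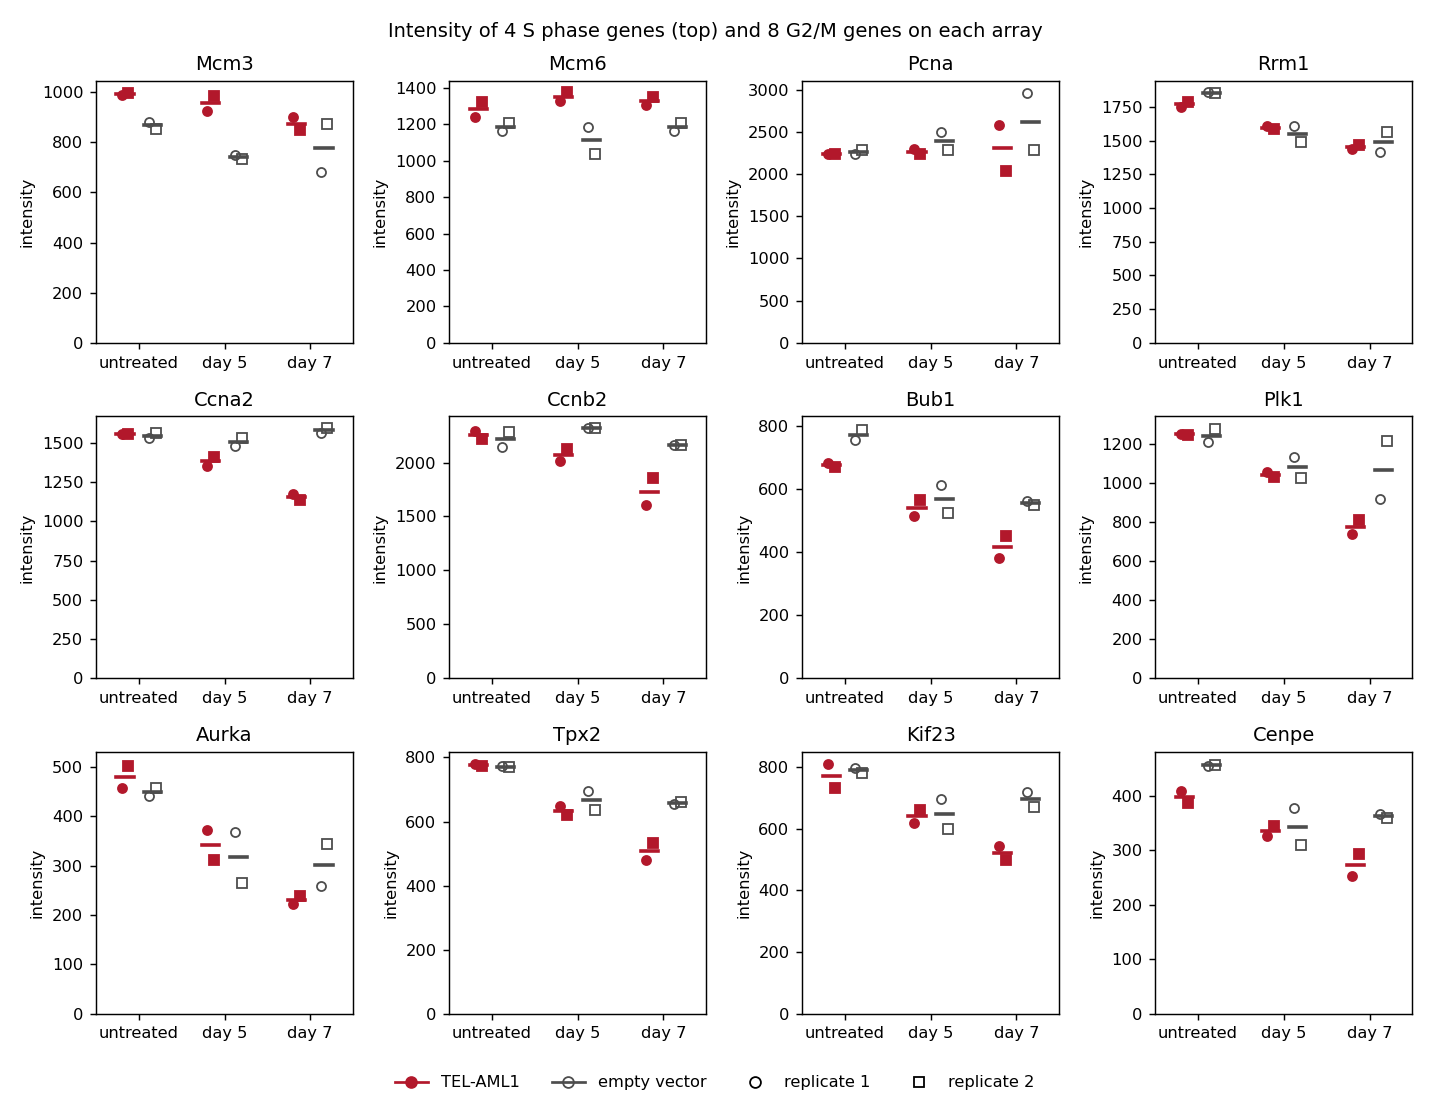
Intensity on each of 12 arrays of 4 S phase genes (top row) and 8 G2/M genes, by treatment, with TEL-AML1 filled and left of the empty vector, circles and squares for replicates 1 and 2, bars at the mean of 2 arrays and axes from 0. Ccna2 at day 7 is 1173 and 1139 with TEL-AML1 against 1565 and 1598 with the empty vector, while Mcm6 is higher with TEL-AML1 in each condition.

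Within TEL-AML1 cells the mitotic genes were lower after 7 days of treatment, a comparison that shares the TEL-AML1 arrays of day 7 with the one between vectors. At day 7, 22 of 23 G2/M genes were lower than in untreated cells (95.7%), against 3.07% of all tested genes called lower and 4.74% higher, and their median was -0.59. Only Mybl2 missed the threshold (-0.37 ± 0.156, adjusted p = 0.189). Aurka, the Aurora A kinase of the spindle poles, read 457 and 501 untreated, 372 and 312 at day 5 and 223 and 238 at day 7 with TEL-AML1, against 440.3 and 458, 368 and 265, and 258 and 343 with the empty vector. Its day 7 arrays with TEL-AML1 were the lowest of the 12, and the difference from untreated cells was -1.005 ± 0.159, adjusted p = 0.00505. The smallest adjusted p-values belonged to Tpx2 (-0.60 ± 0.0772, adjusted p = 0.00161), Bub1 (-0.68 ± 0.101, adjusted p = 0.00354) and Ccna2 (-0.42 ± 0.066, adjusted p = 0.00462). Nek2, a kinase of centrosome separation, differed by -0.76 ± 0.154 and Prc1 by -0.74 ± 0.131. Among the called G2/M genes the smallest difference was that of Top2a (-0.36 ± 0.0796).

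Of the S phase genes, Rrm1 alone was called in that comparison. Rrm1, the large subunit of ribonucleotide reductase, read 1752 and 1786 untreated, 1606 and 1582 at day 5 and 1440 and 1465 at day 7 with TEL-AML1, against 1862 and 1849, 1609 and 1489, and 1413 and 1566 with the empty vector. It was lower at day 7 than untreated in both vectors (-0.28 ± 0.0751, adjusted p = 0.048 with TEL-AML1). The S phase median was -0.10 (-0.17 and -0.07 without TEL-AML1 untreated replicate 2 and day 7 replicate 2), the MCM genes ranged from -0.18 ± 0.104 (Mcm3) to 0.05 ± 0.0809 (Mcm6), and 3 S phase genes had an unadjusted p under 0.05. The G2/M median was -0.59 and -0.60 without TEL-AML1 untreated replicates 1 and 2, and -0.48 and -0.71 without day 7 replicates 1 and 2. Without either of those untreated arrays or day 7 replicate 1, far fewer genes were called, in the G2/M set and over all genes. The Rrm1 call was lost without either empty vector untreated array or any of the 6 TEL-AML1 arrays. With the stroma covariate, 22 G2/M and 3 S phase genes were called, where 5.2% of all genes were called lower.

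At day 5 none of the 36 genes was called in TEL-AML1 cells, where 1.17% of all genes were called higher and 0.429% lower. All 23 G2/M genes were nonetheless below 0 with a median of -0.26, and 11 of them had an unadjusted limma p under 0.05. Of the S phase genes 1 had such a p, and their median was 0.02. With the stroma covariate the G2/M median was -0.43. Stroma levels (mean log2 of the markers) were 6.59 and 6.54 untreated and 7.84 and 7.09 at day 5, so that value is extrapolated across treatment. Day 7 over day 5 gave no calls among the 36 or among all tested genes (0% in each direction). There too all 23 G2/M genes were below 0, with a median of -0.32 and 18 at an unadjusted p under 0.05.

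In empty vector cells, 8.7% of G2/M and 15.4% of S phase genes were called lower at day 5 and 13% and 15.4% at day 7. These shares rest on 2 or 3 genes each, against 7.15% and 9.18% of all tested genes. Of the 23 G2/M genes, 22 were nonetheless below 0 at each day, with 12 and 14 at an unadjusted limma p under 0.05. Of the 13 S phase genes, 11 and 10 were below 0, with 5 and 4 at that level. At day 5, Rrm1 and Brca1 of the S phase set and Bub1 and Cenpe of the G2/M set were lower than in untreated cells, among 7.15% of all genes called lower and 8.40% higher. Brca1, a DNA repair factor, read 346 and 339 untreated, 276 and 296 at day 5 and 258 and 269.9 at day 7 with TEL-AML1, against 375 and 392, 292 and 250, and 257 and 310.2 with the empty vector. Its treated arrays lay below its untreated ones in both vectors, with -0.48 ± 0.101, adjusted p = 0.0141 at day 5 in empty vector cells. At day 7, Rrm1, Brca1, Bub1, Bub1b and Aurka were lower, among 9.18% of all genes called lower and 6.28% higher. Bub1b, a part of the spindle checkpoint complex, read 743 and 707 untreated, 606 and 594 at day 5 and 410.4 and 504 at day 7 with TEL-AML1, against 687 and 707, 612 and 489.5, and 423 and 528 with the empty vector, and its day 7 difference with the empty vector was -0.54 ± 0.133, adjusted p = 0.0235. Aurka differed by -0.57 ± 0.159, adjusted p = 0.0384 and Rrm1 by -0.32 ± 0.0751, adjusted p = 0.0212. Ccna2 and Ccnb2 did not follow, at 0.03 ± 0.066 and -0.03 ± 0.0827. G2/M and S phase medians were -0.25 and -0.23 at day 5 and -0.29 and -0.20 at day 7, beside -0.01 and 0.01 for all tested genes. The day 5 medians were -0.16 and -0.12 without day 5 replicate 2. At day 7 they were -0.22 and -0.09 without day 7 replicate 1 and -0.43 and -0.34 without replicate 2.

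These empty vector counts moved with single arrays and settings. Without either empty vector untreated array, far fewer genes were called at both days, in these sets and over all genes. At day 5 the G2/M median was -0.29 and -0.24 without empty vector untreated replicates 1 and 2, and -0.37 without day 5 replicate 1. At day 7 it was -0.305 and -0.29 without those untreated replicates. S phase medians without them were -0.155 and -0.24 at day 5 and -0.19 and -0.19 at day 7. With the stroma covariate, 1 G2/M gene was called at day 5, where 1.3% of all genes were called lower, and 15 at day 7, where 12.2% were. G2/M and S phase medians then were -0.61 and -0.37 at day 5 and -0.43 and -0.27 at day 7. Stroma levels (mean log2 of the markers) were 6.53 and 6.50 untreated, 8.08 and 7.81 at day 5 and 6.85 and 7.56 at day 7. Treated and untreated arrays did not overlap in them, so these medians are extrapolated across treatment. Bub1 and Cenpe, no longer called at day 5, differed by -0.49 and -0.52 in that fit. Replicate 1 of empty vector day 7 was below replicate 2 in 28 of the 36 genes, with a median gap of 0.253, the widest of the 6 groups. Between day 7 and day 5 no gene of the array was called (0% each way) and no member had an unadjusted p under 0.05.

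The difference between the vectors' responses was tested directly. At day 7 the response of TEL-AML1 cells was below that of empty vector cells in 22 of 23 G2/M genes, with a median of -0.29 (-0.18 without TEL-AML1 day 7 replicate 1), and none of the 36 was called, where 0.0567% of all genes were called higher and 0.0243% lower. Ccna2 came closest (-0.46 ± 0.0933, adjusted p = 0.168), followed by Tpx2 (-0.38 ± 0.109, adjusted p = 0.343), and 6 G2/M genes had an unadjusted limma p under 0.05. S phase genes had a median of 0.03 and none at that level. At day 5 the medians were 0.02 for G2/M and 0.20 for S phase genes. Without empty vector day 5 replicate 1 they were 0.125 and 0.263, and without replicate 2 -0.084 and 0.11. No member was called or had an unadjusted limma p under 0.05 at day 5, and 0.0162% of all genes were called in each direction. The counts of 22 and 3 G2/M genes called lower at day 7 in TEL-AML1 and in empty vector cells therefore do not stand for a called difference between the vectors.

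Other genes of replication and mitosis, listed beside the 43, were read from the same fit. Of 60 other mitosis genes tested, 15 were lower (25%) and none higher with TEL-AML1 at day 7 (median -0.23), against 6.00% of all tested genes called lower. In TEL-AML1 cells 39 were lower at day 7 than untreated (65%, median -0.46), against 3.07%. Among them Ect2, an activator of RhoA in cytokinesis, differed between vectors by -0.60 ± 0.0755, adjusted p = 0.000739 and Hmmr, a spindle protein, by -0.46 ± 0.0869. Of 49 other replication genes, 5 were lower between vectors at day 7 (10.2%, median -0.01) and 3 in TEL-AML1 cells at day 7 over untreated (6.12%, median -0.16), beside the same 6.00% and 3.07%. Brca2, of those 5, and Kntc1 of the mitosis list lie on distal chromosome 5, and both were lower with TEL-AML1 in every condition. Brca2 differed by -0.82 ± 0.076 untreated and -1.04 ± 0.076 at day 7. The distal stretch was taken as Taok3 to Rfc3, and none of the 36 read genes lies on that chromosome. Outside the stretch, 14 of 59 mitosis (23.7%) and 4 of 44 replication genes (9.09%) were lower between vectors at day 7. In untreated cells, all 4 replication genes called lower (8.16% of 49, against 6.15% of all genes) were on that stretch. With the empty vector, 13 of 60 mitosis genes (21.7%) and 10 of 49 replication genes (20.4%) were lower at day 7 than untreated, against 9.18% of all tested genes.

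Of 23 tested brakes of the cell cycle, 2 were higher (8.7%) and 1 lower (4.35%) with TEL-AML1 at day 7. Of all tested genes, 5.25% and 6.00% were. In untreated cells 3 were higher (13%) and none lower, against 2.73% and 6.15% of all tested genes. For the mean of conditions 4 were higher (17.4%) and 3 lower (13%), against 9.83% and 12.7%. Btg1, an antiproliferative gene, was higher with TEL-AML1 untreated (0.67 ± 0.112, adjusted p = 0.0039) and at day 7 (0.75 ± 0.112, adjusted p = 0.00202). Ccng2, an atypical cyclin linked to arrest, differed by 0.70 ± 0.125 and 0.61 ± 0.125. E2f7, a repressor of E2F targets, was lower at day 7 (-0.59 ± 0.113, adjusted p = 0.00819). The inhibitor Cdkn1b, p27, was higher in untreated TEL-AML1 cells (0.38 ± 0.0817, adjusted p = 0.0151) and not called at day 7 (0.10 ± 0.0817), and Cdkn1a, p21, was not called in any comparison. Btg1 also rose with treatment in both vectors, by 0.73 ± 0.112 with TEL-AML1 and 0.65 ± 0.112 with the empty vector at day 7 over untreated.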

How the data were processed

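Total RNA was labelled with biotin and hybridised to Affymetrix arrays, per the labels' protocols. The deposited table holds 1 linear intensity for each of 35556 probe sets and 12 arrays (15.2 to 7932), while the sources used here do not give how the authors normalized the intensity values. Array medians lay within 0.0794 on the log2 scale, so the deposited intensity values were kept. An array has no read depth, and 2 arrays a group limit precision.

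The platform annotation named 1 gene for 21218 probe sets, several for 1881 and none for 12457. Genes with a mean above the 40th percentile (intensity 59.9) were tested. The authors' intensity values were transformed here to log2(intensity + 16), which understates changes of dim genes. All 12 arrays entered 1 limma 3.58.1 fit (R 4.3.3) of 6 group means, with 6 residual and 4.23 prior degrees of freedom and a median standard error of 0.0989 for a group difference. Benjamini-Hochberg adjustment was applied in each of 12 contrasts, with a threshold of 0.05. All 36 genes matched the GRCm38.p6 gene table by Entrez ID.

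The genes and lists were chosen with earlier results of these data known. Values on every array are given for the called genes with the smallest adjusted p (up to 6 a contrast and direction) and for the 2 brightest genes of each role. Of the other lists, genes with the smallest adjusted p are named, up to 3 a list and contrast, and Brca2, Kntc1, Btg1, Cdkn1a and Cdkn1b were followed across contrasts after their values were seen.

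Titles give each group replicates 1 and 2. Same-numbered arrays of the 2 vectors deviated together within a condition (r of 0.432 untreated, 0.543 at day 5 and 0.378 at day 7, across genes) and not between conditions (r from -0.242 to 0.157). The numbers were taken to pair arrays within a condition, and the fit with a replicate block within each condition is given where it changes a count. For day 7 or day 5 over untreated, that block leaves out the spread between numbers, so its counts there, given among the alternatives, rest on too small a spread. Alternatives were other normalizations, filters, pseudocounts, variance models and samples, a stroma covariate and leaving out each array. With group means in the fit, the slope of the stroma covariate rests on gaps between replicates. For day 5 or day 7 over untreated it is carried across treatment, so its values there are no firmer than the main ones.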

Additional observations from a re-analysis of the deposited data

How the results depend on the processing

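No called difference of a named member changed direction under any alternative run. Over 13 alternatives other than leaving out an array, the following counts of called genes moved by over 1.5 times. For TEL-AML1 over empty vector, S phase genes numbered 1 in untreated cells with array weights or only the compared groups, and 1 at day 5 with a pseudocount of 64, a trended variance or the replicate block within each condition. G2/M genes at day 7 numbered 3 with median-centred arrays, 2 with array weights, 0 with only the compared groups (fewer arrays for the spread) and 14 with the replicate block within each condition. For the mean of conditions they numbered 12 with that block and 3 with the stroma covariate. In TEL-AML1 cells, G2/M genes at day 5 over untreated numbered 1 with array weights and 3 with that block. S phase genes at day 7 over untreated numbered 0 (median-centred arrays, pseudocount 1, plain replicate block), 2 (60th percentile filter, pseudocount 64), 3 (array weights, block within condition, stroma covariate) or 4 (compared groups only). With the empty vector, S phase genes at day 5 numbered 1 (pseudocount 1, plain replicate block) or 0 (stroma covariate), and G2/M genes 4 (trended variance), 5 (array weights), 1 (compared groups only, stroma covariate) or 12 (block within condition). At day 7, S phase genes numbered 0 (compared groups only) or 4 (block within condition). G2/M genes then numbered 8 (median-centred arrays, 60th percentile filter), 6 (pseudocount 64), 5 (trended variance), 0 (compared groups only) or 15 (block within condition, stroma covariate). For day 5 or day 7 over untreated, the block within condition leaves out the spread between numbers, so its counts there are not evidence of more called genes. The cause of these moves was not tested except as stated.

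The G2/M minus S phase level, taken with the median over genes, was -0.233 between vectors at day 5, -0.315 and -0.506 for TEL-AML1 at day 5 and day 7 over untreated, and -0.129 and -0.246 with the empty vector. Leaving out each array gave, between vectors, 0 to 2 S phase genes at day 5 and day 7 and 1 to 4 for the mean, and 2 to 11 G2/M genes at day 7 and 1 to 9 for the mean. It gave 0 to 3 S phase and 3 to 23 G2/M genes for TEL-AML1 day 7 over untreated, 0 to 4 and 0 to 7 for empty vector day 5, and 0 to 7 and 0 to 12 for empty vector day 7. The level difference then ranged from -0.381 to -0.173 between vectors at day 7, from -0.516 to -0.307 for TEL-AML1 day 7 over untreated, from -0.287 to -0.079 for day 7 over day 5 and from -0.399 to -0.190 for the difference between responses at day 7. Where an array left a group with 1 sample, that sample was assumed to vary like the other groups. Quantile normalization, no filter and averaging over the probe sets of each gene moved no count by over 1.5 times, and the plain replicate block moved none beyond those given. Each of the 36 genes read lay at or above the 74.6th percentile of brightness, and the 2 arrays a group limit what could be called.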
